A study of Mus musculus with 4 samples.

Results

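The Cyp2c and Cyp2j epoxygenase genes and the epoxide hydrolase gene Ephx2 were followed in liver RNA of mice fed a conjugated linoleic acid (CLA). The members were the probes whose RefSeq accession or bracketed symbol names Cyp2c29, Cyp2c37, Cyp2c38, Cyp2c39, Cyp2c40, Cyp2j5 or Ephx2. Each of the 7 genes had 1 probe, and all 7 were among the 20089 genes and unnamed probes tested, of which 9277 had a symbol. The mice were males of a polygenic obese line, killed on day 14. One group was fed the trans-10, cis-12 isomer of CLA at 1% of the diet and the control group was fed linoleic acid at 1%; the labels give no age or strain name. Each sample was a pool of 4 or 5 mice, and each of 4 two-colour Agilent arrays compared 1 CLA sample with 1 control sample. Arrays 1 and 2 carried the CLA sample in Cy5 (red), and arrays 3 and 4 carried it in Cy3 (green). Nothing in the labels tells whether pools were shared between arrays, and the design text counts 1 replicate per experiment. The p-values therefore reflect the variation among 4 arrays, part or all of which may be technical.

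Cytochrome P450 enzymes of the CYP2C and CYP2J families add oxygen across a double bond of arachidonic acid and make epoxyeicosatrienoic acids, lipid mediators of vessel tone and inflammation. The soluble epoxide hydrolase encoded by Ephx2 turns these epoxides into less active diols. In mouse liver the Cyp2c genes are also known as drug-metabolising genes under the nuclear receptors CAR and PXR, and several of them differ between the sexes.

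The 5 Cyp2c members lie in 1 cluster on chromosome 19 in the GRCm38.p6 gene table, in the order Cyp2c29, Cyp2c39, Cyp2c38, Cyp2c40 and Cyp2c37. Cyp2c67 and Cyp2c68 lie between Cyp2c38 and Cyp2c40, and Cyp2c69 lies between Cyp2c40 and Cyp2c37. The 250 bases before the first start site listed in the RefSeq promoter table (GRCm38.p6) were compared for the 6 members it holds. They are shown for Cyp2c29, Cyp2c39 and Cyp2c38, which are alike upstream, and for Cyp2c40. Cyp2c40 was less identical to them in the windows compared and had the lowest diet effect of the members. Capitals mark AGGTCA, a half-site of nuclear receptors, or its reverse complement. Cyp2c29 is at chr19:39286835-39287084 (plus strand), Cyp2c39 at chr19:39347096-39347345 (plus), Cyp2c38 at chr19:39463076-39463325 (minus) and Cyp2c40 at chr19:39812815-39813064 (minus).
Cyp2c29: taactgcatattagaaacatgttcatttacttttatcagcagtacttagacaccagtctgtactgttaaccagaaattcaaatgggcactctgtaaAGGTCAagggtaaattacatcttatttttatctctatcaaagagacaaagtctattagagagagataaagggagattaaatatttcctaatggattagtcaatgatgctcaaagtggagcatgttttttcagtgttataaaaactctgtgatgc
Cyp2c39: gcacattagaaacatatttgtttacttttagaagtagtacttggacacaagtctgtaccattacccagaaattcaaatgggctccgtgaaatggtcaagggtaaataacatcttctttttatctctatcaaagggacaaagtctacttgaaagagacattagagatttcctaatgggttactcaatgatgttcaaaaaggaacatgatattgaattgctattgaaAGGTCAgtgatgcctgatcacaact
Cyp2c38: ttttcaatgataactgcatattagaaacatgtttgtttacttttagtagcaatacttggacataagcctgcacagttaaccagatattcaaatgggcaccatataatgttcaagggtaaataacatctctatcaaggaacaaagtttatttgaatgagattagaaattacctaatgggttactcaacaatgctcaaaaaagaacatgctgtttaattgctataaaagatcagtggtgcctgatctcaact
Cyp2c40: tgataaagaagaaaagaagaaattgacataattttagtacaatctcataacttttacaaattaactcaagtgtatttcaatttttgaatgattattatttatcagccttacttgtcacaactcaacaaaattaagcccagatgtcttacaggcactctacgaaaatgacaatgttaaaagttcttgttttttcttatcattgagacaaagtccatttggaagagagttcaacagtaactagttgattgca

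Over these 250 bases Cyp2c38 and Cyp2c39 were 75.8% identical, Cyp2c29 and Cyp2c39 74.1%, and Cyp2c29 and Cyp2c38 68.8%, in global alignments with gaps counted as differences. Cyp2c40 was 77.5% identical to Cyp2c69 and 73.5% to Cyp2c68, but 54.1% to Cyp2c29 and 48.2% to Cyp2c67. Cyp2c38 and Cyp2j5, of different families, were 51.5% identical. Each window ends at its listed start site, so a shift between start sites can lower these values. Low values here therefore do not show that the upstream regions differ. AGGTCA on either strand was found in 3 of the 6 members (Cyp2c29, Cyp2c39 and Cyp2j5) and in 14.0% of all 32851 promoters of the table. Cyp2c39 has 2 listed start sites, and only the first, used here, has an AGGTCA before it. TTCNNNGAA, the core that STAT factors bind, was in none of the 6 and in 7.02% of all promoters, searched on both strands. A match is a description of these letters and not a binding site. The arrays' probe sequences were not used here, so how far a Cyp2c probe also binds RNA of its near relatives (Cyp2c67, Cyp2c68 and Cyp2c69 for Cyp2c40) was not tested.

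Ratios are given as log2 CLA over control, first as measured on each array after normalization and then as a diet effect from limma, in which each gene has a dye term. Across genes the fitted diet effects still had r = -0.52 with the dye effects, and Cyp2c40 and Cyp2c38 both had diet and dye effects of opposite sign. The dye dominated the measured ratios. Across genes, the ratios of CLA over control had r = 0.56 between arrays 1 and 2 and r = 0.81 between arrays 3 and 4, but -0.72 to -0.46 between arrays of opposite dye orientation (genes are not independent replicates). Directions therefore rest on the dyes named in the labels. Between 80.3% and 95.8% of non-control spots were well above background, depending on array and diet. Every member was well above background in both channels of all 4 arrays and was saturated on none. Of the 6 hepatocyte markers listed, Apoa1 and Ttr were tested, and both were well above background in every channel.

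No member passed an adjusted p of 0.05 (limma, Benjamini-Hochberg over all 20089 genes and probes), where 14 of 20089 (0.0697%) passed, 0.0348% lower and 0.0348% higher with CLA. At an unadjusted limma p under 0.05, 2 of the 7 members passed, Cyp2c40 on the lower and Cyp2c38 on the higher side, against 15.9% of all genes and probes tested (7.16% lower and 8.76% higher). This count depended on the scaling. With median centring in place of loess 5 of the 7 members had an unadjusted limma p under 0.05, all lower with CLA (Cyp2c29, Cyp2c37, Cyp2c39, Cyp2c40 and Cyp2j5), and Cyp2c38 did not. Under that setting 3784 of 20089 genes and probes did so, against 3199 with loess, and all 7 members were shifted by -0.28 to -0.24. With loess, 5 of the 6 Cyp2c and Cyp2j members lay below 0, with a median diet effect of -0.08, against 47.8% of all tested below 0 and a median of 0.0058. Cyp2c40 was the member with the largest difference between the diets, and Ephx2 stood above 0.

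Cyp2c40, whose enzyme hydroxylates arachidonic acid near the end of its chain rather than epoxidising it in the main, measured -0.05, -0.51, -0.78 and -0.76 on arrays 1 to 4. It was below 0 on all 4 arrays, like 4.72% of genes and probes measured on every array (4.58% were above 0 on all 4), and its ratio on array 1 was the nearest to 0. Its diet effect was -0.52 ± 0.08 (SE, n = 4 arrays, 95% interval -0.71 to -0.34), 1.44-fold lower with CLA, with a limma adjusted p of 0.064. By size, 19 of 20089 genes and probes (0.0946%) had a diet effect at or below this one. Its dye effect was 0.24, so the lower ratios were measured where CLA was in Cy3. The normalized log2 intensity of Cyp2c40 was 12.86 to 13.17 in the CLA channels and 13.09 to 13.93 in the control channels. These ranges overlapped, through the control channel of array 1. With the dye effect removed, all 4 arrays lay below 0, between -0.75 and -0.30. The dye effect removed was fitted to the same 4 arrays, which gives both dye orientations the same mean. With the dye effect made equal in size on all arrays but not removed, array 1 measured 0.003, and 3 of the 4 arrays were below 0.

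The call for Cyp2c40 depended on the setting. Without array 1 its diet effect was -0.64 (limma adjusted p = 0.045), and without array 2 it was -0.41 (limma adjusted p = 0.163). With median centring in place of loess it was -0.79 (limma adjusted p = 0.0018), and with a trended, robust variance it was -0.52 (limma adjusted p = 0.042). With the dye effect made equal in size on all arrays it was -0.46 (limma adjusted p = 0.197).

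**Figure D1:**
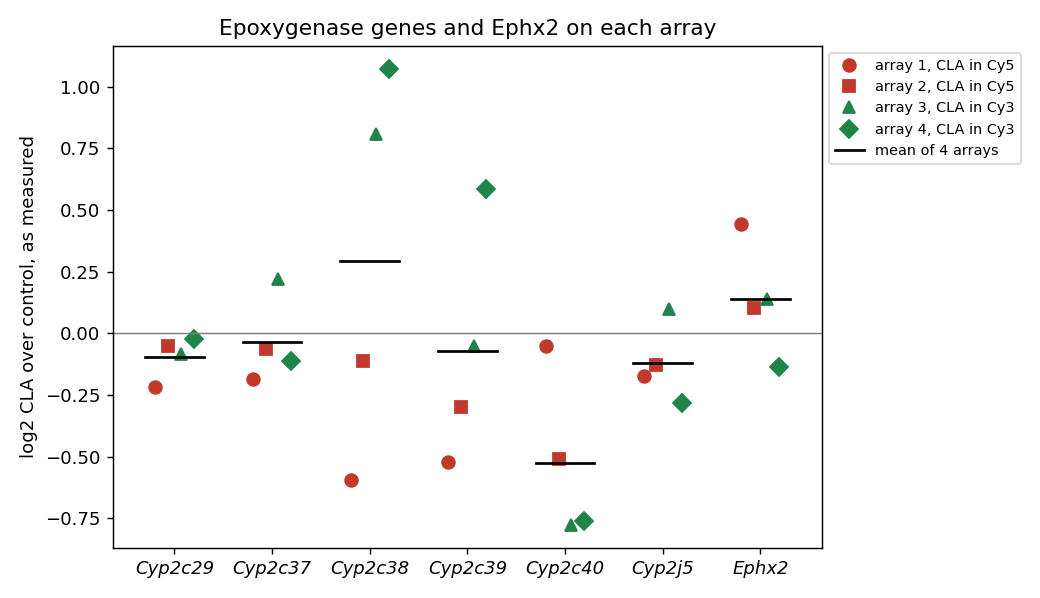
Log2 CLA over control as measured, dye effect not removed, for the 7 genes on each of the 4 arrays. Red symbols are arrays with CLA in Cy5, green symbols arrays with CLA in Cy3, and bars are the mean of the 4 arrays. Cyp2c40 and Cyp2c29 lie below 0 on all 4 arrays, while Cyp2c38 lies below 0 on the red and above 0 on the green ones.

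Cyp2c38, which makes an epoxide of arachidonic acid, measured -0.60, -0.11, 0.81 and 1.07 on arrays 1 to 4. The arrays with CLA in Cy5 were below 0 and those with CLA in Cy3 above it, as for 43.1% of the 19838 genes and probes measured on all 4 arrays, which had opposite signs in the 2 orientations. Its dye effect of -0.65 was larger in size than its diet effect of 0.29 ± 0.09 (SE, n = 4 arrays, 95% interval 0.09 to 0.50, limma adjusted p = 0.20). The dye effect was not equal in size on all arrays. Its slope on the mean dye profile was 0.78 and 0.73 on arrays 1 and 2 and 1.18 and 1.30 on arrays 3 and 4. With the dye effect made equal in size, Cyp2c38 stood at 0.14 (limma adjusted p = 0.580), and with median centring at 0.050 (limma adjusted p = 0.856). It was 0.17 without array 2 and 0.41 without array 1.

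Cyp2c39, whose enzyme epoxidises arachidonic acid and also hydroxylates retinoic acid, measured -0.52, -0.30, -0.05 and 0.59 on arrays 1 to 4. Only array 4 was above 0, and with the dye effect removed arrays 2 and 4 lay above 0 and arrays 1 and 3 below it. Its diet effect was -0.07 ± 0.10 (SE, n = 4 arrays), with an interval of -0.31 to 0.16, and without array 3 it was 0.088. Exocrine pancreas markers were high on array 4, and Pnlip also on array 2 (0.58, against 0.69 on array 4). The 3 tested of the 8 listed had a median diet effect of 0.45, none passed, and their median ratio was 0.03, 0.16, 0.11 and 1.36 on arrays 1 to 4, and their summed intensity ranged from 864 to 2324 in the CLA channels and from 761 to 825 in the control channels. All 3, Ctrb1, Pnlip and Prss2, were well above background in every channel. Their part in the ratios of the Cyp2c genes on array 4 was not tested.

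Cyp2c29, an epoxygenase of the liver that CAR activators induce, measured -0.22, -0.05, -0.08 and -0.02 on arrays 1 to 4. All 4 values were below 0, but its diet effect of -0.09 ± 0.06 (SE, n = 4 arrays) had an interval of -0.24 to 0.05. It was -0.053 without array 1. Cyp2c37, which hydroxylates arachidonic acid, measured -0.18, -0.06, 0.22 and -0.11. Arrays 1, 2 and 4 were below 0 and array 3 above it, and the diet effect was -0.04 ± 0.07 (interval -0.20 to 0.13). Without array 4 it was 0.048. Cyp2j5, an epoxygenase of liver and kidney, measured -0.17, -0.13, 0.10 and -0.28 on arrays 1 to 4. Here too array 3 alone was above 0, and the diet effect was -0.12 ± 0.07 (interval -0.29 to 0.05). It was -0.025 without array 4 and -0.22 without array 3. For these 3 genes the limma adjusted p lay between 0.437 and 0.822. Their intervals hold effects as low as -0.29.

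Ephx2 measured 0.45, 0.10, 0.14 and -0.14 on arrays 1 to 4. It was above 0 on arrays 1 to 3 and below 0 on array 4, with a diet effect of 0.14 ± 0.08 (SE, n = 4 arrays, interval -0.05 to 0.32, limma adjusted p = 0.410). It was 0.052 without array 1 and 0.22 without array 2. The sign depended on the scaling. With median centring the diet effect of Ephx2 was -0.11 (limma adjusted p = 0.615). That scaling lowered all 7 members, by -0.28 to -0.24 on the log2 scale, while the median over all genes and probes tested was 0.0058 with loess and -0.0084 with median centring.

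**Figure D2:**
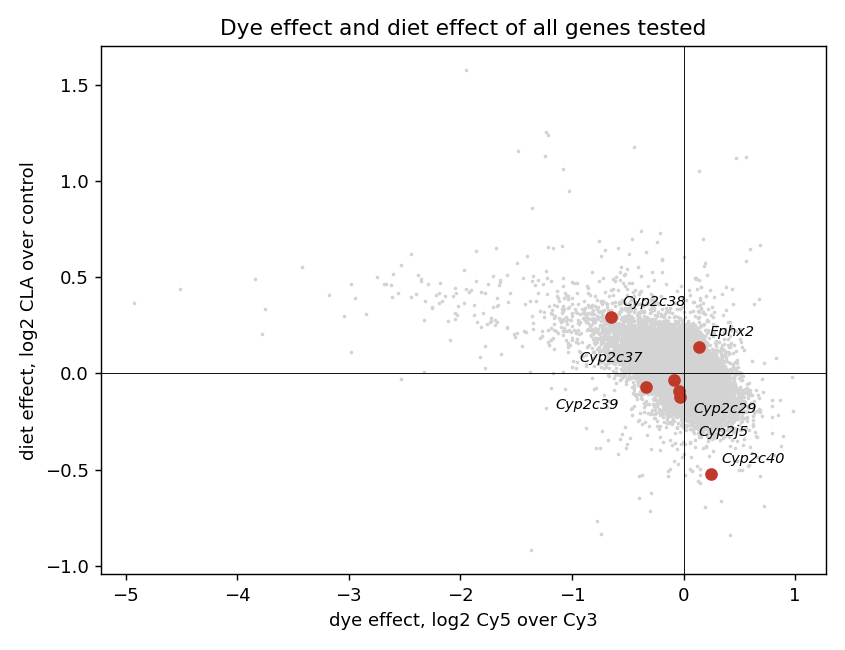
Diet effect (log2 CLA over control, y axis) against dye effect (log2 Cy5 over Cy3, x axis) for all 20089 genes and probes tested (grey) and the 7 members (red). Cyp2c38 has the most negative dye effect of the members (-0.65), and Cyp2c40 lies below the bulk of the genes at -0.52.

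Each Cyp2c and Cyp2j member was compared with Ephx2, although for Cyp2c40 and Cyp2c37 the pair does not set a main maker of epoxides against the gene that clears them. The comparison was made as the difference between their log2 ratios on the same array. All 6 pairs share the same Ephx2 values, so they are not independent of each other. On array 1 Ephx2 itself was 0.45, against -0.05 for Cyp2c40 and -0.17 for Cyp2j5. Cyp2c40 minus Ephx2 was -0.50, -0.61, -0.92 and -0.62 on arrays 1 to 4. The difference was below 0 on all 4 arrays and averaged -0.66 ± 0.18 (SD, n = 4). Cyp2j5 minus Ephx2 was -0.62, -0.23, -0.04 and -0.14, again below 0 on all 4 arrays, with a mean of -0.26 ± 0.25 (SD, n = 4). Over the arrays left out in turn it ran from -0.35 without array 2 to -0.16 without array 1. Both had an exact sign-flip permutation p of 0.125 (two-sided, 4 arrays), the smallest that 16 sign patterns can give, so this design could not reach 0.05. The adjusted p over the 6 pairs compared was 0.375 in this exact test.

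For the other 4 pairs the arrays did not all lie on one side of 0. Cyp2c29 minus Ephx2 averaged -0.23 ± 0.32 (SD, n = 4 arrays), Cyp2c37 minus Ephx2 -0.17 ± 0.32 and Cyp2c39 minus Ephx2 -0.21 ± 0.70. Cyp2c38 minus Ephx2 averaged 0.16 ± 0.99, with -1.04 on array 1 and 1.21 on array 4. Their adjusted p in the exact permutation test lay between 0.5 and 0.875. The SDs of all 6 differences include the dye effect, which the permutation does not remove. With it removed the SDs were 0.25 for Cyp2c29, 0.19 for Cyp2c37, 0.44 for Cyp2c39 and 0.40 for Cyp2c38. For Cyp2c40 and Cyp2j5 they were 0.13 and 0.16. The dye effect was fitted to the same 4 arrays, which these SDs do not allow for, so they understate the spread. The difference for Cyp2c40 moved little with the scaling and the arrays used, from -0.73 to -0.59 over the arrays left out in turn and from -0.68 to -0.64 over the other scalings.

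**Figure D3:**
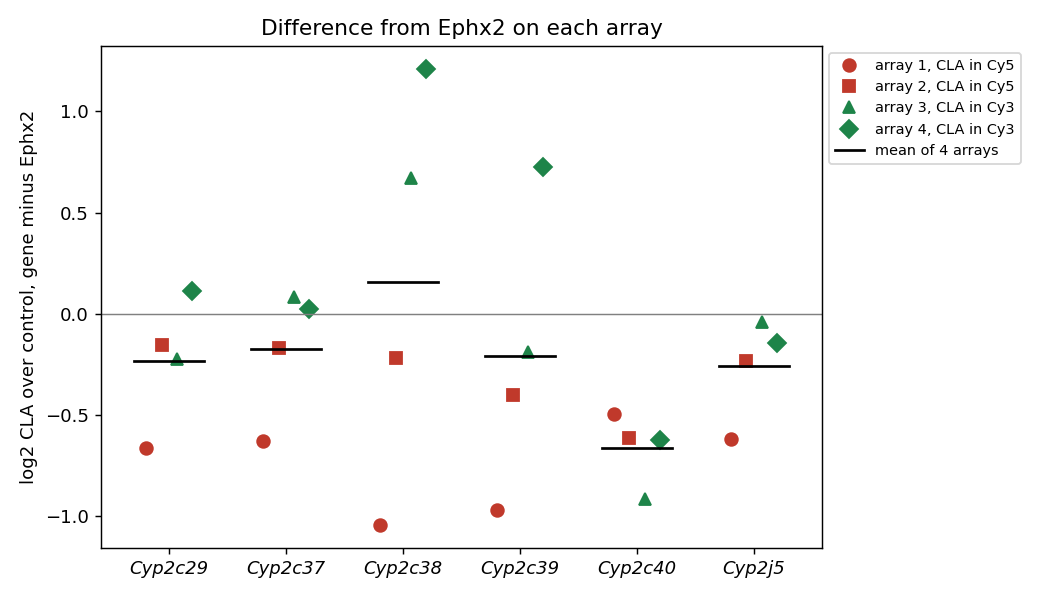
Log2 CLA over control of each Cyp2c and Cyp2j member minus that of Ephx2 on the same array, as measured, for the 4 arrays (symbols as named in the legend) with the mean as a bar. The Cyp2c40 values lie between -0.92 and -0.50, below 0 on all 4 arrays, and those of Cyp2c38 range from -1.04 to 1.21.

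Of the other 11 listed Cyp2c symbols 2 were tested, and neither passed. Cyp2c70, which makes muricholic acids from bile acid precursors in mice, was named through its accession in the authors' deposited table. It measured -0.56, -0.29, -1.63 and -0.87 on arrays 1 to 4. It was below 0 on every array, with a diet effect of -0.84 ± 0.12 (SE, n = 4 arrays, limma adjusted p = 0.057). Its dye effect was 0.41, and it measured lower where CLA was in Cy3. The authors' deposited table of 775 probes lists Cyp2c70 with a ratio of 0.643 (p = 0.00122) and holds none of the 7 members. Cyp2c55 stood at 0.08 ± 0.07. Of 7 other Cyp2j symbols 1 was tested, Cyp2j6, whose 2 probes stood at -0.04 ± 0.07 and -0.20 ± 0.06, with limma adjusted p of 0.770 and 0.197 when every probe was tested on its own.

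Ephx1, the microsomal epoxide hydrolase of xenobiotic metabolism, measured -0.16, 0.22, 0.89 and 1.22 on arrays 1 to 4. Array 1 was below 0 and the others above it. Its diet effect of 0.54 ± 0.09 (SE, n = 4 arrays, limma adjusted p = 0.064) stood beside a dye effect of -0.51. Lta4h, a leukotriene hydrolase, stood at 0.04 ± 0.07. Of the 3 electron donors tested, Por, the reductase that feeds microsomal P450 enzymes, stood at 0.19 ± 0.07, Cyb5r3 at -0.20 ± 0.08 and Cyb5b at 0.04 ± 0.06, and none passed. Por had a dye effect of -0.41 and was below 0 where CLA was in Cy5 and above 0 where it was in Cy3.

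In the branches of arachidonic acid around the epoxygenases, 1 gene passed over all genes. Cyp4f14, of the omega hydroxylases, fell by 0.53 on the log2 scale (SE 0.06, n = 4 arrays, limma adjusted p = 0.043), and 4 of the 5 omega hydroxylases tested lay below 0, against 47.8% of all tested. Cyp4f14 measured -0.34, -0.43, -0.65 and -0.70 on arrays 1 to 4, below 0 on each. Its call held under 7 of 16 alternatives and was lost under 9, among them leaving out array 1 (limma adjusted p = 0.064) or array 2 (limma adjusted p = 0.122). Among those 9, the scanner's processed signals and the deposited series matrix gave the same values. The gene of the list above 0, Cyp4a14, named after its values were seen, measured 0.36, 3.01, 0.22 and 0.91. It was above 0 on all 4 arrays and highest on array 2, with a diet effect of 1.12 ± 0.35 (SE, n = 4 arrays, limma adjusted p = 0.203). The remaining 3 stood between -0.18 and -0.06. The authors' deposited table lists Cyp4f14 with a ratio of 0.673 (p = 1.1e-04). None of the 8 tested genes of arachidonic acid release and re-esterification passed. The leading ones were Acsl1, an acyl-CoA synthetase, at 0.48 ± 0.08, Fads2, the delta-6 desaturase of the arachidonic acid route, at 0.34 ± 0.06, and Pla2g6, a phospholipase, at 0.23 ± 0.07. Their dye effects were -0.57, -0.77 and -0.31, and each measured higher where CLA was in Cy3. Fads2 was below 0 on arrays 1 and 2 and above 0 on arrays 3 and 4. All 6 tested genes of the cyclooxygenase and lipoxygenase branches lay close to 0, between -0.12 for Alox12 and 0.02 for Ptges, with Ptgs1 at -0.07 and Ltc4s at -0.04. None passed, and only 1 of the 6 was well above background in every channel.

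Of 14 other Cyp2 genes tested 9 lay above 0 and 5 below it (median 0.09), against 47.8% of all tested below 0. None of the 14 passed. Those with the smallest p were Cyp2b13 at 1.05 ± 0.16, Cyp2b9 at 1.12 ± 0.20 and Cyp2b10, a standard CAR target, at 0.56 ± 0.11, with limma adjusted p of 0.064, 0.079 and 0.101. The authors' deposited table also lists Cyp2a4 (ratio 0.599), Cyp2a12 (0.780), Foxa2 (0.758) and the endothelial marker Lyve1 (1.52), none of which passed here. Their fitted log2 diet effects were -0.29 for Cyp2a4, -3.3e-04 for Cyp2a12, -0.21 for Foxa2 and 0.13 for Lyve1. Of 12 tested receptors and factors known for the control of Cyp2c genes 10 lay above 0 and 2 below it (median 0.07). Of all tested 47.8% lay below 0. None of the 12 passed, and Ahr (0.0024), Nfe2l2 (0.0038) and Rxra (0.0077) lay close to 0. Cebpa stood at 0.32 ± 0.06, Nr1i3, which encodes CAR, at 0.23 ± 0.06 and Foxa2 at -0.21 ± 0.07. Cebpa and Nr1i3 had dye effects of -0.76 and -0.54, and both were below 0 where CLA was in Cy5 and above 0 where it was in Cy3.

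**Figure D4:**
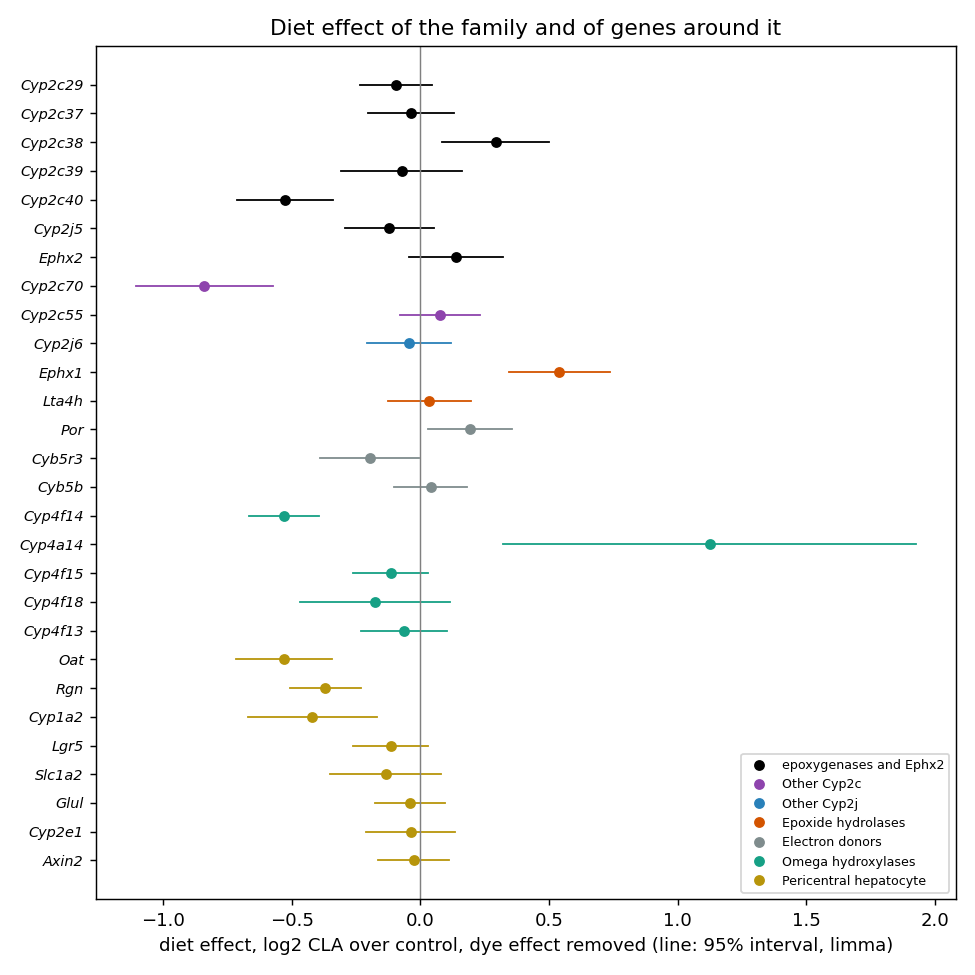
Diet effect (log2 CLA over control with the dye effect removed, x axis) of the 7 genes and of the tested genes of 6 lists around them, with 95% intervals from limma. Cyp2c70 (-0.84), Cyp4f14 (-0.53) and Cyp2c40 (-0.52) lie lowest among the cytochrome P450 genes shown. All 8 pericentral genes lie below 0, with Glul, Cyp2e1 and Axin2 close to it.

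Hepatocytes near the central vein are known for high expression of several Cyp2c genes, so the zonation markers were set beside them. All 8 tested pericentral markers lay below 0 (median diet effect -0.12), against 47.8% of all genes and probes. The lowest p belonged to Oat at -0.53 ± 0.08, Rgn at -0.37 ± 0.06 and Cyp1a2 at -0.42 ± 0.11, and none of the 8 passed over all genes. Glul, Cyp2e1 and Axin2 lay close to 0, at -0.04 ± 0.06, -0.04 ± 0.07 and -0.03 ± 0.06, each with 2 arrays above and 2 below 0. The list's median ratio as measured was -0.33, -0.21, -0.15 and -0.12 on arrays 1 to 4. The summed intensity of the list was 24180 to 32244 in the CLA channels and 29815 to 32955 in the control channels, which overlapped. Of 5 periportal markers 3 lay below 0 (median -0.0094), led by Cyp2f2 at -0.26 ± 0.07. Cyp2f2 had a dye effect of 0.43 and was above 0 where CLA was in Cy5 and below 0 where it was in Cy3. Of the markers of other cells, the tested 6 endothelial, 5 Kupffer cell, 3 stellate, 4 cholangiocyte, 2 enterocyte and 3 kidney tubule genes had list medians between -0.03 and 0.05, and none passed. Acta2, of the stellate list and named after its values were seen, stood at 0.39 ± 0.08 (SE, n = 4 arrays, limma adjusted p = 0.118) beside a dye effect of -1.13. The part of these markers in the ratios of the Cyp2c genes was not tested, and fewer cells of a type and less RNA per cell cannot be told apart in whole liver.

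Over the 4 arrays, the named genes whose measured ratios were nearest to those of Cyp2c40, by Euclidean distance among 9150 genes with a symbol and a value on every array, were Cyp4f14 (distance 0.33), Hsd3b4 (0.34) and Msmo1 (0.38). Their diet effects were -0.53, -0.66 and -0.49. Those nearest to Ephx2 were Uap1 (0.11), Nxph3 (0.14) and Amd1 (0.17), with diet effects of 0.11, 0.09 and 0.14. The ratios compared still hold the dye effect, so nearness can also reflect a like dye effect. With 4 arrays such likeness is a description only.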

How the data were processed

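Agilent Feature Extraction produced the scanner output, per the file headers. For each of 22393 spots and both channels the deposited text gives a mean foreground and a median background intensity, a processed intensity and the log10 ratio of Cy5 to Cy3. A second log10 ratio stands in the deposited series matrix, whose making neither labels nor headers give. Its slope on the scanner's value was 1.00 for the arrays with CLA in Cy5 and -1.00 for the others, which makes it CLA over control. The authors' deposited table lists, per probe, a ratio, a p-value from an unstated test and a signed fold score.

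Here intensities were corrected with normexp (offset 50) and normalized within arrays by loess with control spots at weight 0 (limma 3.58.1, R 4.3.3). Outlier spots were set missing and spots of a probe averaged. A probe was tested if well above background in 1 diet on at least 2 arrays and measured on at least 3. Of 20868 probes 8947 were named by RefSeq accession, 516 by the bracketed symbol and 165 by the accession in the authors' table. The brightest probe stood for a gene. The limma fit had a dye intercept and the diet coded +1 or -1, with Benjamini-Hochberg adjustment over all genes and a threshold of 0.05. It was tested on simulated data with a dye effect equal in size on all arrays, unlike the arrays here. That test therefore could not show what an unequal dye effect does to the fit. Differences from Ephx2 were tested by exact sign flips. Promoter sequences were aligned with Biopython 1.88. The number of arrays limits the precision. Of each list every called gene, or otherwise up to 3 by p, is named. The members and lists were chosen with earlier results of these data known.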

Additional observations from a re-analysis of the deposited data

Results flagged for a closer look

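Cyp2c38 had ratios of opposite sign in the 2 dye orientations, which is why it is listed here. Its mean log2 CLA over control was -0.36 on arrays 1 and 2 (CLA in Cy5) and 0.94 on arrays 3 and 4 (CLA in Cy3), a gap of 1.30. The difference between the orientations was not tested, and 43.1% of the genes and probes measured on all 4 arrays showed opposite signs as well. The gap is the dye effect of -0.65 counted in both directions. No member had an array far enough from the others to be listed.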

How the results depend on the processing

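The diet effects of Cyp2c29, Cyp2c38, Cyp2c40 and Cyp2j5 kept their direction under all 16 alternatives, though leaving out 1 array moved Cyp2c29 (-0.14 to -0.053), Cyp2c38 (0.17 to 0.41) and Cyp2j5 (-0.22 to -0.025) by over 1.5 times. Cyp2c40 ranged from -0.64 to -0.41 over the arrays left out in turn, and passed the threshold without array 1 (-0.64), with median centring (-0.79) and with a trended, robust variance (-0.52). Under those 3 settings 1 member was called, and under the others 0. The other members changed direction as follows. Ephx2 was -0.11 with median centring and 0.052 to 0.22 over the arrays left out, Cyp2c37 ranged from -0.12 to 0.048 and Cyp2c39 from -0.23 to 0.088 over the arrays left out. The difference of Cyp2c38 from Ephx2 was -0.036 with the dye effect made equal in size and -0.051 to 0.36 over the arrays left out, and that of Cyp2c39 was -0.44 to 0.019. Those of Cyp2c29 (-0.36 to -0.11) and Cyp2c37 (-0.29 to -0.058) stayed below 0. The count of genes called, 14, was 0 with the scanner's processed signals, the series matrix, no background subtraction, an offset of 16, no dye term or the dye effect made equal in size (limma, 292 to 3397 at an unadjusted p under 0.05). It was 140 with median centring, 153 with a trended, robust variance and 2 with the day of image extraction as a block, and 2 to 82 over the arrays left out. That day set array 2 alone apart from the other 3, so the block amounts to leaving out array 2. The scanner's processed signals and the series matrix gave the same values, so they are not separate alternatives. The cause of these changes was not tested. Each array was a slide of its own. Every member was well above background in every channel. Without background subtraction Cyp2c29 was -0.042, and with an offset of 16 the limma adjusted p of Cyp2c40 was 0.276.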
